A study of Homo sapiens with 4 samples.

Results

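Cells of an untreated H1299 culture were compared by how strongly they expressed genes of mitosis. H1299 is a line from a human lung cancer of the non-small cell kind, and this library was grown with DMSO, the solvent control. Each cell was scored by the summed counts of 10 genes (TOP2A, MKI67, CDC20, CCNB2, AURKA, UBE2C, TPX2, CENPF, HMMR and NUSAP1) as a share of its gene counts. The 894 cells with the highest score (the top set, 25% of cells) were set against the 894 cells with the lowest (the bottom set), which is 1788 of the 3578 cells of the library and of the 15289 cells of the series. The score genes were left out of every readout. The sets were thus chosen by measured counts of these same cells, and the values below describe the cells and carry no test.

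The series holds 4 libraries of 10x Genomics 5′ single-cell RNA sequencing, 1 for each of H1299 and HCT116, a human colorectal cancer line, with DMSO or with DAC (decitabine, a DNA methyltransferase inhibitor) and SB939 (a histone deacetylase inhibitor). The treated cells received 500 nM DAC for 72 h and 500 nM SB939 for 18 h, in medium that was changed every 24 h, and cells were at passage 5 to 10. The other 3 libraries were ranked by the same score and are set beside the untreated H1299 values. With 1 library per condition there was no replicate check, and the intervals given are 95% intervals that cover counting error only.

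A dividing cell copies its DNA in S phase, grows and prepares for division in G2, and separates the copied chromosomes in M phase. Many genes that serve these steps are transcribed at a set time. E2F factors act on genes of DNA replication around the start of S phase, and the MuvB complex with B-MYB (MYBL2) and FOXM1 acts on genes of mitosis later, through a promoter element called the cell cycle genes homology region (CHR) and often together with NF-Y, which binds CCAAT. Core histone mRNA is made and stabilised mainly while DNA is copied. After division, repression of these promoters returns the cell to the low transcript levels of G1. The anaphase-promoting complex (APC/C) acts on proteins and marks them for destruction.

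Promoters of 5 genes of the G2 and M lists are shown because the letters of the CHR and of CCAAT were searched in promoters. This covered the 81.2% of genes compared that had a matched promoter. They are the 250 bases before the start in RefSeq on GRCh38.p14, taken at the start that lies farthest upstream, 5′ to 3′ on the gene strand, with TTTGAA or TTCGAA and CCAAT in capitals, or the reverse complements TTCAAA and ATTGG where the match is on the other strand. The first 4 had the highest ratios among list members that held TTTGAA or TTCGAA, so these letters in them were fixed by the choice. LMNA had the lowest ratio of these lists and was taken whatever its letters. FAM83D (log2 ratio, top over bottom set, 4.26), NEK2 (3.76) and KIF20A (3.71) stood above CCNF (3.69). They are not shown because they had no such letters in the window or no matched promoter.
PSRC1 (chr1:109283146-109283395, minus strand): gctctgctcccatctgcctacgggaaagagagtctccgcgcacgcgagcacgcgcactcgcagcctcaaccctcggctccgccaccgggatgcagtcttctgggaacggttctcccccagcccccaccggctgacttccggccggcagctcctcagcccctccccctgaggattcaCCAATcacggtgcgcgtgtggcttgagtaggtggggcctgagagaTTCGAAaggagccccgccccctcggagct
ASPM (chr1:197146670-197146919, minus strand): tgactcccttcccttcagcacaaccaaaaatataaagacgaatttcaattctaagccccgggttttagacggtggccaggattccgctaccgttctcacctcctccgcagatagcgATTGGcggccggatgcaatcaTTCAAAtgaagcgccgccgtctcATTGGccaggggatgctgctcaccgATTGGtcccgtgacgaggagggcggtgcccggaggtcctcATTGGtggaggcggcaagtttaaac
PLK1 (chr16:23678639-23678888, plus strand): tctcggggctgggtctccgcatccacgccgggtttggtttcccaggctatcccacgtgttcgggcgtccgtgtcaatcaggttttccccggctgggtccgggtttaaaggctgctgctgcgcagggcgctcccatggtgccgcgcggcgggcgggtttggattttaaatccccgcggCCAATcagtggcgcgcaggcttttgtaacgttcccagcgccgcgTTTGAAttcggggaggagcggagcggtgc
CCNF (chr16:2429197-2429446, plus strand): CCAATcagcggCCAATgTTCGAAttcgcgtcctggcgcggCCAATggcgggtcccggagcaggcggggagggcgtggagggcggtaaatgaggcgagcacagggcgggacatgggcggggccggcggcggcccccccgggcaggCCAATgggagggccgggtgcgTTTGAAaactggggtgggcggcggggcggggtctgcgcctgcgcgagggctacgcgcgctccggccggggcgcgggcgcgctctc
LMNA (chr1:156082323-156082572, plus strand): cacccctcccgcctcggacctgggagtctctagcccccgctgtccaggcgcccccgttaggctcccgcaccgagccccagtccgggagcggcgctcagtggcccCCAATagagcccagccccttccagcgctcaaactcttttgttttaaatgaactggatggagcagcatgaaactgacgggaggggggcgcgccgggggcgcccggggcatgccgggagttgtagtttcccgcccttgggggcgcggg
PSRC1, a microtubule-binding protein of the spindle, has TTCGAA 29 bases before its start and CCAAT 74 bases before it. PLK1, the polo-like kinase of mitosis, has TTTGAA 29 bases and CCAAT 73 bases before its start, nearly the same spacing. ASPM, a protein of the spindle poles, has its CHR letters 113 bases before the start and CCAAT letters at 4 places, and CCNF (cyclin F) has CHR letters at 233 and 85 bases and CCAAT at 4 places. The window of LMNA, which encodes lamin A/C, holds no CHR letters and 1 CCAAT. Any other start of these genes was not searched.

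The score had no gap at either edge of the sets. Its median was 34.4 counts per 10000 gene counts in the top set, 3.89 in the bottom set and 13.2 in the whole library. The lowest score in the top set was 24.3255 and the cell just outside had 24.3216, and the highest score in the bottom set was 7.05831 against 7.08535 just outside. Of the score's counts, TPX2 gave 18.7%, CENPF 16.5% and UBE2C 14.3%, and HMMR gave the smallest share with 4.16%. The sets are thus ranges of a continuous score, and "mitotic" and "non-mitotic" in the strict sense cannot be read from it. They are called the top and the bottom set below.

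**Figure D1:**
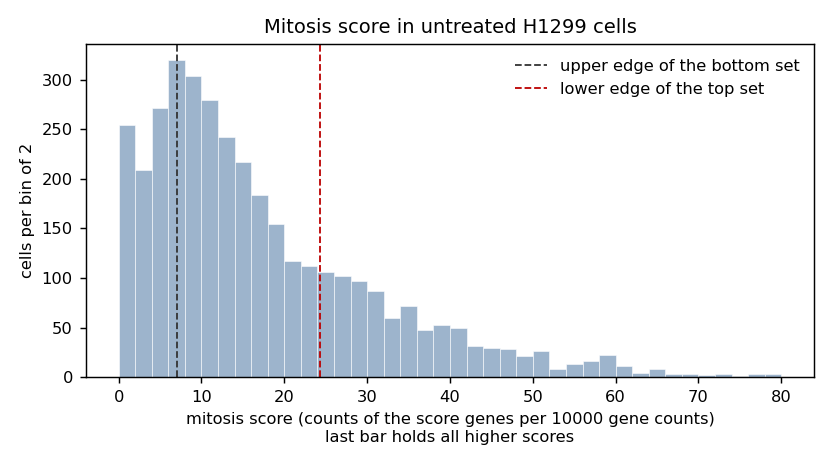
Cells of the untreated H1299 library (y axis, cells per bin) by mitosis score (x axis, counts of the score genes per 10000 gene counts). The dashed lines at 7.06 and 24.3 mark the edges of the bottom and the top set, and the bars run on without a gap at both.

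Cells of the top set held more RNA counts. The median gene count per cell was 17952 in the top and 15623.5 in the bottom set, a ratio of 1.15. The median number of gene names detected was 4483 against 3898. Summed gene counts were 16989054 and 14393123. The median mitochondrial share was close (8.22% and 8.61%), and cells above 25% mitochondrial counts numbered 12 and 29. Genes of ribosomal proteins took a median of 24.2% of counts in the top and 28.4% in the bottom set, which moves the share left for other genes. Of the 12 HCT116 colon epithelial markers, 5 counts in all were found in the top and 1 in the bottom set (LGALS4 had 3, and VIL1, CLDN7 and EPCAM had 1 each), with the other 8 at 0 in both sets, and 31 compared cells carried a barcode that also occurs in another library. No doublet caller was run.

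Levels are counts scaled to 1000000 gene counts (CPM), and the log2 ratio is the top over the bottom set. A gene needed 200 counts in the set where it was higher, and 7870 genes met this. Of them, 849 (10.8%) were at least 1.5-fold higher in the top set and 247 (3.14%) at least 1.5-fold lower. At 2-fold these were 283 (3.6%) and 55 (0.699%). The median log2 ratio over the 7870 genes was 0.13. Without mitochondrial and ribosomal protein genes in the denominator 566 were higher and 380 lower, after subtraction of the median of all genes 521 and 423, and counted per cell 2031 and 98. The rule fixes the direction for genes that move with the score, so these shares are the background against which lists are read, and no count below is evidence for the score itself.

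Genes of G2 and M phase outside the score were higher in the top set almost throughout. Of 109 such genes in 5 lists, 94 were at least 1.5-fold higher, beside the 10.8% of all genes, and none was 1.5-fold lower, with a median log2 ratio of 1.94. All 109 passed the minimum of counts. The lists were chosen with earlier results of these data known, so these counts are descriptions. Their summed level was 18682 CPM in the top and 7574 CPM in the bottom set. With 10% of cells per set the median was 3.24, and with 50% it was 1.05.

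Mitotic kinases and their regulators drive entry into mitosis and watch over it. Of 19 members, 17 were at least 1.5-fold higher and the median log2 ratio was 1.95. PLK1 had 217 counts in the bottom and 3363 in the top set, 15.1 and 198 CPM, a log2 ratio of 3.71 (3.52 to 3.92). After each cell was thinned to 10500 gene counts, 12.8% of bottom and 79.7% of top cells had a PLK1 count (17.1% and 90.2% without thinning), and how far free RNA contributes to the share in the bottom set was not measured, since no cells in the library are known to lack PLK1. With all cells of the library ordered by score and divided into 10 bins of 357 or 358 cells (bin 1 lowest), PLK1 went from 6.98 CPM in bin 1 to 34.5 in bin 5 and 242 in bin 10. NEK2, a kinase of centrosome separation, had the highest ratio of the list at 3.76, and BORA, which helps Aurora A activate PLK1, had 3.28. The spindle checkpoint kinases BUB1, BUB1B and TTK had 2.90, 2.75 and 2.73.

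CDK1, the kinase that starts mitosis, had a log2 ratio of 2.63 (2.43 to 2.83), and its level climbed late, from 49.6 CPM in bin 8 to 75.8 in bin 9 and 145 in bin 10. CDC25C, a phosphatase that activates CDK1, had 2.87. Aurora B (AURKB), the kinase of the chromosomal passenger complex, had 1.95, with 33.2 and 128 CPM. Lower in the list stood 3 regulators that hold back or sustain the CDK1 switch: WEE1 at 0.64 and PKMYT1 at 0.51, both inhibitory kinases of CDK1, and MASTL, which restrains the opposing phosphatase, at 0.33. PKMYT1 and MASTL were the members of the list under 1.5-fold.

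Among mitotic cyclins, securin and APC/C factors, 9 of 13 genes were higher (median 1.36). CCNF had 3.69, CCNA2 (cyclin A2) 2.92 and CCNB1 (cyclin B1) 2.89, the latter with 35.7 CPM in the bottom and 266 in the top set. CDCA3, which aids the destruction of WEE1, had 3.24. PTTG1, the securin that holds separase in check, was abundant in both sets (301 and 547 CPM) and had a log2 ratio of 0.86. The APC/C subunits divided: CDC27 had 1.53, whereas ANAPC1 had 0.28, ANAPC11 0.15, CDC16 0.11 and ANAPC5 0.07, all under 1.5-fold. The coactivator FZR1, which works with the APC/C at the end of mitosis and in G1, had 1.36, and its antagonist FBXO5 (EMI1) had 1.04.

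Genes of the kinetochore, the centromere and the spindle checkpoint were higher in 22 of 24 cases (median 1.76). CENPA, the histone variant that marks the centromere, had 15.8 and 176 CPM (log2 3.47), and its chaperone HJURP had 33.2 and 275 CPM (3.05). CENPE, a kinetochore motor, had 3.42, and NDC80 and NUF2, which bind microtubules together, had 3.21 and 3.17. The shugoshins SGO2 and SGO1, which protect cohesion at the centromere, had 3.06 and 2.13. The 2 members under 1.5-fold were CENPN (0.55) and SKA2 (0.35). CENPW (0.62) and CENPM (0.63), both of the constitutive centromere network, lay just past the 1.5-fold line at 0.585. For HJURP the last step was steep, from 130 CPM in bin 8 to 387 in bin 10.

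All 32 genes of the list of spindle motors and spindle proteins were at least 1.5-fold higher, with a median of 2.56, and each had its highest level in bin 10. FAM83D, which brings casein kinase 1 to the spindle, had 72 counts in the bottom and 1627 in the top set (4.26; 3.92 to 4.62). PSRC1 had 82 and 1536 counts (3.99), ASPM 228 and 3548 (3.72), and the cytokinesis kinesin KIF20A 105 and 1621 (3.71). CDCA8, INCENP and BIRC5, which form the passenger complex with Aurora B, had 3.56, 2.93 and 1.98. ARL6IP1, a protein that shapes the endoplasmic reticulum and was placed in this list, had 3.32. The lowest was NUMA1, a spindle pole protein that lies in the nucleus through interphase, at 0.82 (43.8 and 77.3 CPM).

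Condensin and chromatin architecture genes were mixed: 14 of 21 were higher and the median was 1.22. CDCA2, which brings phosphatase to chromatin at mitotic exit, led with 3.48, and HMGB2, a DNA-bending protein, had 57.5 and 498 CPM (3.11). HMGB2 climbed from bin 1 (22.4 CPM) through bin 5 (169) to bin 10 (587), with no flat stretch. Of the condensins, NCAPG had 2.39, SMC4 1.95 and SMC2 1.22, and of the nuclear lamina LMNB1 had 1.26 and LMNA -0.01. LMNA (240 and 237 CPM) was the single member of the 5 lists with a log2 ratio below 0. The histone variant H2AFX had 1.67, H2AFZ 0.56 and H2AFV 0.49.

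**Figure D2:**
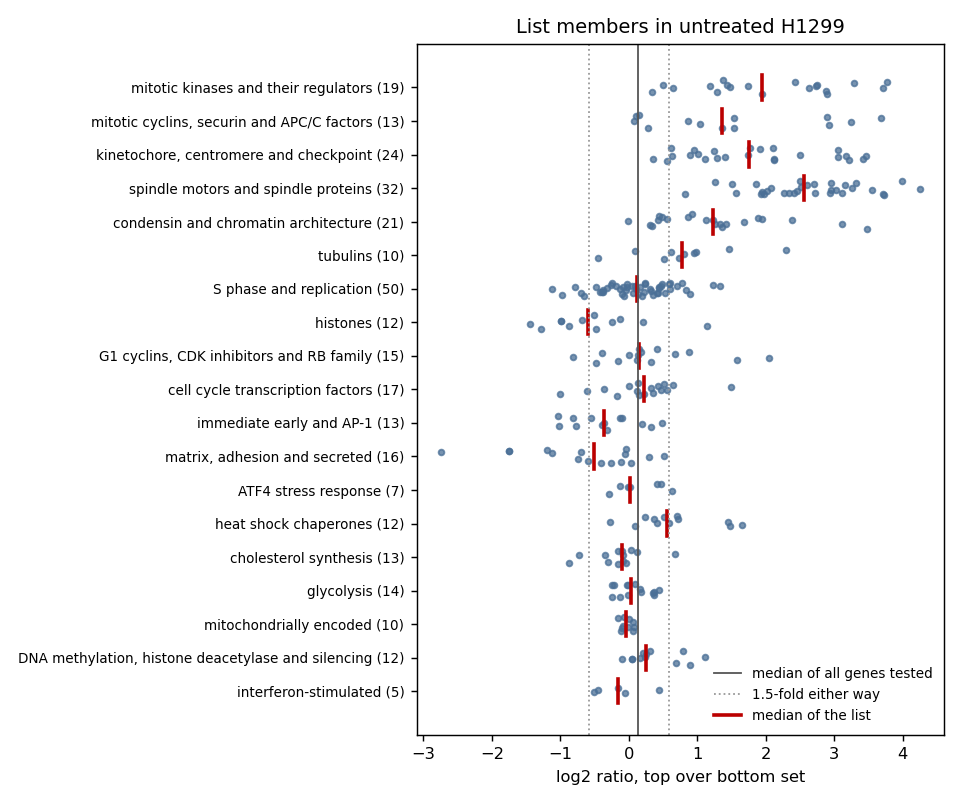
Log2 ratio, top over bottom set (x axis), of each list member with at least 200 counts (blue points, number in brackets; vertical position within a row is arbitrary), with the list's median (red bar), the median of all genes at 0.13 (grey line) and 1.5-fold either way (dotted). The first 5 rows are the G2 and M lists, with medians from 1.22 to 2.56, and histones and the matrix list have medians of -0.59 and -0.50.

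Tubulins build the spindle and the interphase network. Of the 10 of 12 members that passed the minimum, 7 were higher, beside 10.8% of all genes, and the median was 0.77. TUBB4B, a beta tubulin, had 79.6 and 392 CPM (2.30) and TUBA1C, an alpha tubulin, 136 and 376 CPM (1.47). TUBB had 0.99 and TUBA1B 0.61. TUBB3, a beta tubulin best known from neurons, had 141 and 103 CPM (-0.45), with its highest level, 177 CPM, in bin 1.

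Genes of S phase and replication showed no common shift between the sets. Of 54 genes 50 passed the minimum: 8 were higher, beside 10.8% of all genes, 5 lower, beside 3.14%, and 37 within 1.5-fold. Their median was 0.12 beside 0.13 for all genes. The median was -0.06 with 50% of cells per set and -0.02 after subtraction of the median of all genes. The higher members were RRM2 (1.34) and RRM1 (0.70), subunits of ribonucleotide reductase, RAD51AP1 (1.24), USP1 (0.90), TYMS (thymidylate synthase, 0.84), GMNN (geminin, which blocks a second licensing of origins, 0.78), CLSPN and NASP (0.60 each). The lower ones were CCNE2 (cyclin E2, -1.12), UNG (uracil-DNA glycosylase, -0.97), MCM6 (a subunit of the replicative helicase, -0.79), CDC6 (origin licensing, -0.70) and EXO1 (an exonuclease of repair, -0.66). PCNA, the sliding clamp, had 51.9 and 61.3 CPM (0.24).

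The bins show what the comparison of the sets hides. The list's summed level was 1430 CPM in bin 1, 3074 in bin 2 and 3665 in bin 3, and then stayed between 2977 and 3658 up to bin 10. The first bin, with a median score of 1.46, was thus the lowest for replication genes as well as for mitotic ones. The members peaked at different places: 17 had their highest level in bins 1 to 3, among them UNG and MCM6 in bin 2 and CDC6, CCNE2, CDT1, MCM5 and EXO1 in bin 3. Another 21 peaked in bins 4 to 7, with PCNA, FEN1 and MCM2 in bin 4 and TYMS, RRM1 and CLSPN in bin 6. The other 12, including RRM2, GMNN and USP1, peaked in bin 10. MCM6 went from 28.5 CPM in bin 1 to 62.3 in bin 2 and 30.8 in bin 10, and CCNE2 from 8.59 to 29.04 in bin 3 and 5.51. With 10% of cells per set (bin 10 over bin 1), the list's median was 1.01. CDC6, EXO1 and MCM6 then had 0.26, 0.95 and 0.12, above 0 where the sets of 25% gave values below it. For single genes with 10% of cells per set, here and below, the minimum of counts was not applied and no interval was computed.

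Histone genes were highest in the middle bins. Of 20 genes on the list 19 were matched by name and 12 passed the minimum, with a median of -0.59. Of these 12, 1 was higher and 6 lower, beside 10.8% and 3.14% of all genes. Summed over the list, the level was 565 CPM in bin 1, 1519 in bin 2, 3829 in bin 5 and 634 in bin 10. HIST1H4C, an H4 gene, had 209 CPM in bin 1, 2532 in bin 5 and 345 in bin 10, with a ratio of -0.48 between the sets. The linker histone gene HIST1H1B went from 4.48 to 214 CPM in bin 6 and back to 11.3, with -1.28 between the sets. Of the 12 genes 9 had their highest level in bins 4 to 7. The higher gene was H1FX (1.15), a linker histone whose expression does not depend on replication, and it peaked in bin 8. HIST1H2BK, whose mRNA can also be polyadenylated, peaked in bin 1. The chemistry captures polyadenylated RNA, while most replication-dependent histone mRNA ends in a stem-loop, so levels of these genes cannot be set beside other genes. With 10% of cells per set, HIST1H1B had 1.33 and HIST1H1E 0.15, against -1.28 and -0.68. Copies of histone genes are alike in sequence, and reads of one can have been counted for another. HIST1H3F (-1.45; 0.065 with 10% of cells per set), outside the list, had 53.0% of its bottom-set counts in 10 cells.

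**Figure D3:**
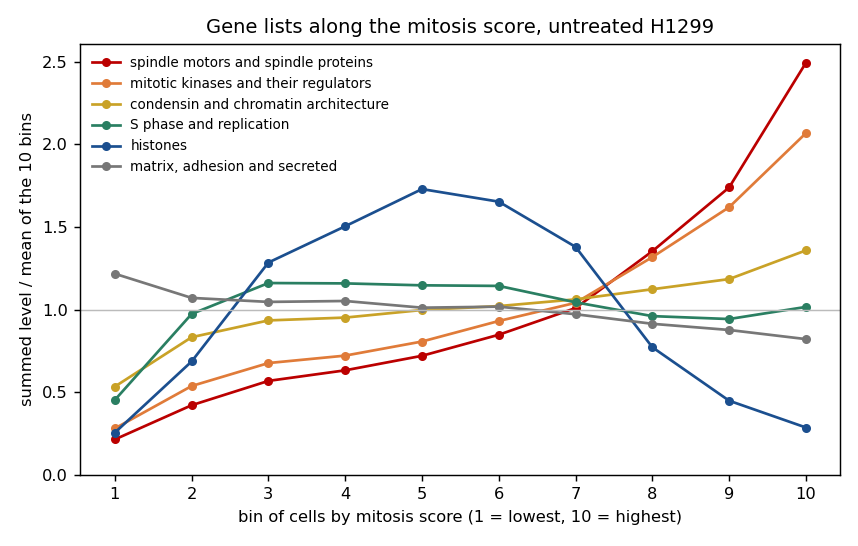
Summed level of 6 gene lists (y axis, relative to the mean of the 10 bins) in bins of the untreated H1299 cells by mitosis score (x axis). The spindle and kinase lists rise to the last bin, histones peak in bin 5, and the S phase list is low in bin 1 (1430 CPM) and between 2977 and 3665 CPM from bin 3 on.

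Of the cell cycle transcription factors, 17 of 19 passed the minimum, with 2 higher and 2 lower (median 0.22). The 2 higher genes are 11.8% of those 17, near the 10.8% of all genes, and 3.14% of all genes were lower. FOXM1 had 79.8 and 224 CPM (1.49) and LIN52, a MuvB subunit, 0.65. E2F1 had 37.2 and 18.6 CPM (-0.999) and E2F2 16.0 and 10.4 CPM (-0.62). Both E2F genes were highest in bin 3, E2F1 at 59.7 CPM against 17.4 in bin 1 and 13.9 in bin 10, and E2F2 had 0.64 with 10% of cells per set. MYBL2 had 0.51 and peaked in bin 6, and FOXM1 peaked in bin 10.

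Among G1 cyclins, CDK inhibitors and the RB family, 15 of 18 passed the minimum (median 0.14). Of these, 4 were higher and 1 lower, beside 10.8% and 3.14% of all genes. The 3 highest were CDK inhibitors: CDKN2D (p19) at 8.82 and 36.6 CPM (2.05), CDKN2C (p18) at 26.0 and 77.9 (1.58) and CDKN1B (p27) at 24.2 and 44.3 (0.87). RB1, the retinoblastoma protein, had 0.67. CDKN2B (p15) was lower at 37.4 and 21.2 CPM (-0.82), with its highest level, 51.2 CPM, in bin 1. CDKN1A (p21) had -0.48, and CCND1 (cyclin D1) was level at 268 and 270 CPM (0.01).

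**Figure D4:**
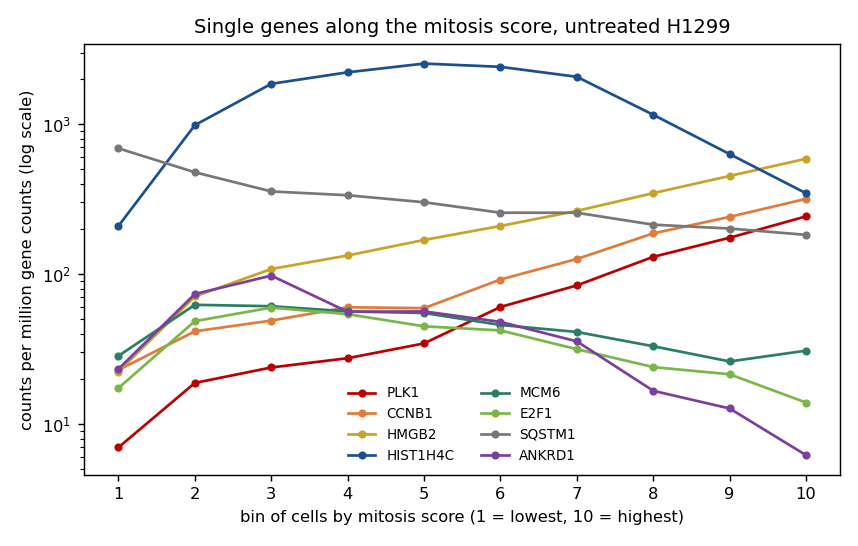
Levels of 8 genes (y axis, CPM on a log scale) in bins of the untreated H1299 cells by mitosis score (x axis). PLK1, CCNB1 and HMGB2 climb to bin 10, HIST1H4C, MCM6, E2F1 and ANKRD1 peak between bins 2 and 5, and SQSTM1 declines from 689 to 183 CPM.

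The 15 genes with the highest ratios were PIF1, NEURL1B, FAM83D, PSRC1, NEK2, ASPM, PLK1, KIF20A, CCNF, CDCA8, CDCA2, CENPA, CENPE, ARL6IP1 and KNSTRN, with log2 ratios from 4.47 down to 3.32. Of these, 12 were members of the G2 and M lists, which were chosen with earlier results of these data known. PIF1, a DNA helicase (chr15:64815632-64825668 in GENCODE v29), had 20 counts in the bottom and 523 in the top set, 22.2-fold (14.2 to 36.6). It stayed between 0.49 and 1.79 CPM in bins 1 to 5 and then rose to 36.6 CPM in bin 10. NEURL1B, a ubiquitin ligase related to Neuralized, had 8 and 204 counts, 21.6-fold (10.8 to 50.7). KNSTRN, a kinetochore and spindle protein, had 3.32. For these 15 genes, the 10 cells with most counts held between 4.58% (CENPE) and 15.7% (NEURL1B) of a gene's counts in the top set. Without thinning, NEURL1B had a count in 16.4% of top cells and PIF1 in 33.8%. The others had one in between 56.4% (CCNF) and 97.3% (ARL6IP1) of them.

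At the other end, the 15 genes with the lowest ratios ran from -2.74 to -1.44: ANKRD1, CTGF, G0S2, SMIM1, RP11-618G20.2, PLK2, STC1, MNT, RP11-879F14.2, SQSTM1, SYT1, DKK1, FAM101A, HIST1H3F and HIST1H2AC. ANKRD1, an ankyrin repeat protein and known target of YAP, had 906 counts in the bottom and 160 in the top set (-2.74; -2.99 to -2.50). It was not highest in the lowest-scoring cells but in bin 3 (97.6 CPM, against 23.3 in bin 1 and 6.19 in bin 10), and 42.6% of its bottom-set counts came from 10 cells. SQSTM1, the autophagy receptor p62, had 7757 and 3261 counts (-1.49; -1.55 to -1.43) and declined over the bins from 689 to 183 CPM. G0S2, an inhibitor of triglyceride lipase, had 10048 and 3527 counts (-1.75). PLK2, a polo-like kinase of G1, had 766 and 281 counts (-1.69), opposite in sign to PLK1. MNT, a transcriptional repressor of the MAX network, had 337 and 131 counts (-1.60), and DKK1, a secreted WNT antagonist, -1.48. For FAM101A, 48.0% of the counts lie under names that join it with other genes and were left out.

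Genes of the matrix, adhesion and secretion were lower in the top set or level. Of 22 genes 16 passed the minimum, and 8 were at least 1.5-fold lower, beside 3.14% of all genes, none higher, with a median of -0.50. CTGF and CYR61, matricellular proteins and YAP targets, had 108 and 32.1 CPM (-1.76) and 378 and 173 CPM (-1.13). CYR61 held its level through bin 5 (419 CPM) and fell to 90.3 CPM in bin 10. PLAU, the urokinase-type plasminogen activator, had -0.69. ITGA2, an integrin, had -0.74 and LAMB3, a laminin chain, -0.60. VIM (vimentin) had 2684 and 2029 CPM (-0.40), and AXL, a receptor kinase, 154 and 219 CPM (0.51).

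Immediate early and AP-1 genes had 13 of 16 members above the minimum (median -0.37). Of these, 4 were lower, beside 3.14% of all genes, and none higher. JUN had 54.3 and 26.5 CPM (-1.03), SGK1 40.7 and 20.2 (-1.01), DUSP6, a phosphatase of ERK, 43.7 and 24.96 (-0.81) and JUND 35.6 and 21.0 (-0.77). JUN was between 46.5 and 60.8 CPM in bins 1 to 8 and 13.8 CPM in bin 10. FOSL1 went the other way, 206 and 289 CPM (0.49), within 1.5-fold.

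Heat shock chaperones were higher in 6 of 12 cases, beside 10.8% of all genes, and lower in none (median 0.55). The inducible HSP70 genes HSPA1B and HSPA1A had 19.1 and 60.1 CPM (1.65) and 32.5 and 90.5 CPM (1.48), and their co-chaperone DNAJB1 had 77.5 and 212 CPM (1.45). HSPA1A was at 46.7 CPM in bin 8 and 128 CPM in bin 10. HSP90AA1 had 1883 and 2825 CPM (0.59), the constitutive HSP90AB1 0.10 and the small chaperone HSPB1 -0.27. The 2 HSPA1 genes are near-identical, and reads can be assigned to either.

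Of the genes of DNA methylation, histone deacetylation and silencing, the targets of the 2 inhibitors among them, 12 of 17 passed the minimum (median 0.24). Of these, 4 were higher, beside 10.8% of all genes. EZH2 and SUZ12, of Polycomb repressive complex 2, had 1.11 and 0.69, ATF7IP, a partner of SETDB1, 0.90, and DNMT1, the maintenance methyltransferase, 156 and 269 CPM (0.78). DNMT1 climbed from 107 CPM in bin 1 to 238 in bin 4 and 279 in bin 10. The deacetylases HDAC1 (0.25), HDAC2 (0.05), HDAC3 (0.05) and HDAC8 (0.17) were within 1.5-fold.

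In the other lists 0 to 2 genes were past 1.5-fold in a direction, beside 10.8% of all genes higher and 3.14% lower. With so few members above the minimum, 1 or 2 calls are not read as a result about a list. In glycolysis 14 of 15 genes passed the minimum, as did the 10 of 13 mitochondrially encoded genes that were matched by name, and none was past 1.5-fold in either direction (medians 0.04 and -0.04). Of 13 of 14 cholesterol synthesis genes, 1 was at least 1.5-fold higher and 2, HMGCS1 (-0.87) and MSMO1 (-0.72), were lower (median -0.09). In the ATF4 stress list, SESN2 (0.64) was higher among 7 of 13 (median 0.02). Of 14 interferon-stimulated genes 5 passed the minimum and none was past 1.5-fold (median -0.16).

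Transposable elements (TE) are repeat families counted in a table of their own. Its label reads tss, for transcription start sites, so the values need not cover all TE reads. TE took 0.182% (0.180 to 0.184) of counts in the top and 0.215% (0.213 to 0.217) in the bottom set, a log2 ratio of -0.24 (-0.26 to -0.22) of these shares. LTR12 names had -0.50 (-0.58 to -0.43), THE1 names -0.44, L1 names -0.20, MER names -0.10 and Alu names -0.02 (-0.21 to 0.17), while HERV names had 0.10 (-0.04 to 0.25). Of 64 families that reached 100 counts in the set where their level was higher, 3 (4.69%) were at least 1.5-fold higher and 6 (9.38%) lower. The highest were MER66B (118 and 289 counts in the bottom and top set, 1.05), LTR12D (52 and 127, 1.05), AluY_short_ (0.94), L1MDa_5end (0.49) and L1M2_orf2 (0.24), and the lowest LTR12F (107 and 47, -1.43), L1ME3Cz_3end (-1.42), L1MCa_5end (-1.37), THE1B (-0.83) and L1MC4a_3end (-0.72). The interval of L1M2_orf2 (-0.17 to 0.64) included 0, and that of L1MDa_5end (0.06 to 0.93) began close to 0. Counted per cell instead, the log2 ratio of all TE was -0.00284, and with 50% of cells per set it was -0.11.

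The letters of the CHR were more frequent in promoters of genes with higher ratios. TTTGAA or TTCGAA, on either strand, lay in the 250 bases before the start of 9.60% of the 6393 genes compared that had a promoter in the table, and of 14.6% of the 27305 promoters of the whole table. All shares of genes compared, here and below, are of those with a promoter in the table. The share was 8.18% of genes within 1.5-fold, 21.2% of those at least 1.5-fold higher, 33.6% at 2-fold and 48.6% (35 of 72) at 4-fold. Of genes at least 1.5-fold lower it was 7.23%. Within the nearest 100 bases the share was 2.83% of all genes compared and 30.6% of those at least 4-fold higher. The G2 and M lists had these letters in 41.3% of promoters and the S phase list in 6.98% (3 of 43).

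CCAAT, on either strand, lay in 36.7% of promoters of the genes compared, 48.6% of those at least 1.5-fold higher, 70.8% at 4-fold, 69.6% of the G2 and M lists and 58.1% of the S phase list. Of genes at least 1.5-fold lower it was 41.0%, also above that of the genes compared. Both elements together occurred in 4.43% of all genes compared and in 43.1% of those at least 4-fold higher. GGCGG, letters found in many E2F sites and also in GC-rich promoters at large, lay in 86.9% of all genes compared and 93.1% of those at least 4-fold higher, and thus set few genes apart. These are counts of letters in a window and say nothing of binding, and the deposited tables give no start positions.

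The same score, applied in the other 3 libraries, was set beside these values, with no test of a difference. The count of genes at least 1.5-fold higher was 1697 of 7739 (21.9%) in treated H1299, 533 of 7616 (7%) in untreated HCT116 and 609 of 4976 (12.2%) in treated HCT116, and lower genes numbered 360 (4.65%), 46 (0.604%) and 79 (1.59%). The median gene count in all cells was 15263, 16218.5 and 7972, against 17328 in untreated H1299, and the bottom set's median score was 0.580, 5.06 and 1.13, against 3.89. Of the 849 genes higher in untreated H1299, 585 of 753 that passed the minimum were higher in treated H1299, 336 of 744 in untreated HCT116 and 262 of 512 in treated HCT116. Of the 247 lower genes 73 of 188, 9 of 109 and 12 of 79 were lower there too, while 9, 0 and 7 were at least 1.5-fold higher. Of the 849 higher genes 2, 1 and 2 were at least 1.5-fold lower.

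Of the 15 highest genes, counted here whether or not they passed the minimum, 15 were at least 1.5-fold higher in treated H1299, 15 in untreated HCT116 and 14 in treated HCT116. In treated HCT116, 3 of them did not pass the minimum: PIF1 at 3.10, PSRC1 at 1.69, and NEURL1B at 0.50, with 90 counts in the top and 59 in the bottom set. For PLK1 the log2 ratio was 5.75 in treated H1299, 3.08 in untreated and 2.62 in treated HCT116. Of the 15 lowest, 8 of 12 were lower in treated H1299, 0 of 5 in untreated HCT116 and 2 of 6 in treated HCT116. Of all genes that passed the minimum, 4.65%, 0.604% and 1.59% were lower in these libraries, in the same order. At least 1.5-fold higher were 21.9%, 7% and 12.2%. Both sets of 15 were chosen as extremes of untreated H1299, so ratios nearer to 0 elsewhere can come from that choice. SQSTM1 had -0.80, -0.13 and -0.60, and PLK2 -0.41, 0.34 and -0.09. Most of the 15 lowest genes thus had too few counts in HCT116 to be compared.

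**Figure D5:**
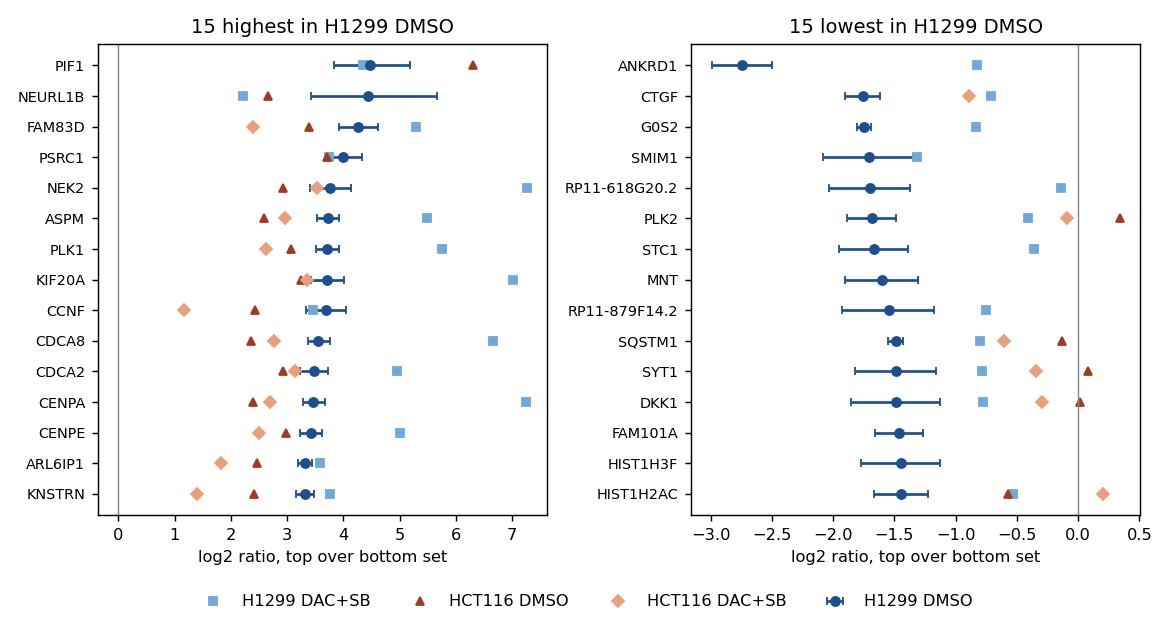
Log2 ratio, top over bottom set (x axis), of the 15 highest and 15 lowest genes of the untreated H1299 library (blue circles with 95% counting intervals) and of the same genes in the other libraries where they passed 200 counts. The highest genes lie to the right of 0 wherever a point is drawn, and the drawn points of the lowest lie nearer to 0 in the other libraries. The genes were chosen as extremes of untreated H1299, so values nearer to 0 elsewhere can come from that choice.

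For the S phase list, values in the treated libraries are set beside the untreated ones with no test. Its summed level over all 54 genes was 2548 CPM in the bottom and 3071 CPM in the top set of untreated H1299 (log2 ratio 0.27), and 3177 and 2668 CPM in untreated HCT116 (-0.25). In treated H1299 it was 651 and 2478 CPM (1.93), and in treated HCT116 1104 and 2468 CPM (1.16). The bottom sets also differed in their median mitosis score, which was 3.89 and 5.06 in untreated H1299 and HCT116 and 0.580 and 1.13 in the treated libraries, and the part of this in the ratios was not tested. Within untreated H1299, the median log2 ratio of the list's genes that passed the minimum was 0.12 with 25% of cells per set and 1.01 with 10%. RRM2 had 1.34 and 0.56 in the untreated H1299 and HCT116 libraries and 4.75 and 2.40 in the treated ones, and PCNA 0.24 and -0.40 against 1.96 and 0.90. The summed histone list had log2 ratios of -0.51 and -0.38 in the untreated libraries, in the same order, and 0.70 and 0.66 in the treated ones. Of the heat shock genes, DNAJB1 had 1.45, 1.21, 1.47 and 0.93 in untreated H1299, treated H1299, untreated HCT116 and treated HCT116. The TE log2 ratio was -0.67 in treated H1299, in untreated HCT116 -0.07 and in treated HCT116 -0.27.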

How the data were processed

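Single-cell gene counts of 1 untreated H1299 library were analysed, with 3 further libraries for comparison, each 1 sample. Per the labels, the libraries were made with 10x Genomics 5′ chemistry from polyadenylated RNA. The authors deposited whole-number counts of genes and of TE per cell, in long tables without normalization. The submitters' processing notes name CASAVA, STAR and the builds GRCh38 and hg38. Not given in the sources used here are the annotation, the choice of cells and whether the counts are of unique molecular identifiers.

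Each cell was assigned to its library by the name attached to its barcode. A gene's counts were summed over its features, and the 2419 names that join several genes, which hold 11.4% of gene counts in the untreated H1299 library, were left out of single genes and kept in the totals. Counts were summed over the cells of a set and divided by their summed gene counts (TE by gene and TE counts), and the ratio of the sets was given with an exact conditional binomial 95% interval. A gene needed 200 counts (a TE family 100) in the set where it was higher. A gene at 0 in a set was set to 3 counts. Calls are ratios of at least 1.5-fold, and no test was made. For shares of cells, each cell was thinned to 10500 gene counts, which left out 101 top and 122 bottom cells. The ratio and its interval were tested on simulated data.

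The cells compared and the 20 gene lists were chosen with earlier results of these data known. Genes were named by rule: members of the lists, the 15 highest and the 15 lowest ratios, and the 5 highest and 5 lowest TE families. Some named genes are not reported here. Gene positions are from GENCODE v29 on GRCh38 and promoters from RefSeq on GRCh38.p14, matched by symbol or synonym for 81.2% of genes compared. Alternatives covered the share of cells compared, the weights of the score, depth, possible doublets, the denominator, joined names, the count minimum and the fold. Python 3.11.15 with NumPy 2.4.6, SciPy 1.17.1, pandas 2.3.3 and Matplotlib 3.10.9 was used.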

Additional observations from a re-analysis of the deposited data

Results flagged for a closer look

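With 25% of cells per set, CDC6 and EXO1 had ratios of opposite sign in the untreated and the treated libraries. Both belong to the S phase list, where the shift was not particular to them. In treated H1299 44 of 44 members that passed the minimum were higher, beside 21.9% of all genes. In treated HCT116 34 of 35 were, beside 12.2%. In untreated H1299 8 of 50 were higher and 5 lower, beside 10.8% and 3.14%. In untreated HCT116 1 of 52 was higher and 14 lower, beside 7% and 0.604%. For CDC6, which licenses origins of replication, the log2 ratio, top over bottom set, was -0.70 in untreated H1299 and -1.15 in untreated HCT116, against 3.31 in treated H1299 and 1.75 in treated HCT116. For EXO1, an exonuclease of DNA repair, it was -0.66 and -0.75 in the untreated H1299 and HCT116 libraries, against 2.08 and 2.30 in the treated ones. The direction in untreated H1299 varied with the cells compared: with 10% of cells per set CDC6 had 0.26 and EXO1 0.95 there, the sign of the treated libraries. The minimum of counts was not applied to these values with 10% of cells, and they carry no interval. Each library is 1 sample, and the difference was not tested. The bottom sets also differ in score between these libraries, with medians of 3.89 and 5.06 untreated and 0.580 and 1.13 treated. The part of this in the difference was not tested.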

How the results depend on the processing

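The 849 higher and 247 lower genes, the G2 and M median of 1.94, the S phase median of 0.12, the depth ratio of 1.15 and the TE log2 ratio of -0.24 were recomputed under the alternatives that bear on each. The count minimum and the fold were varied for the counts of genes, the depth ratio was recomputed where the cells compared changed, and the TE value was not recomputed for joined names, numbered features or the subtracted median. With 10% of cells per set in place of 25%, 1199 genes were higher and 169 lower of 4772 with enough counts, among them 584 of the 849 and 69 of the 247, the G2 and M median was 3.24, the S phase median 1.01, the depth ratio 1.23 and the TE value -0.30. In that comparison, 7 of the 170 named genes past 1.5-fold changed sign, and none did in the other alternatives run on single genes: CDC6 to 0.26, E2F2 to 0.64, EXO1 to 0.95, HIST1H1B to 1.33, HIST1H1E to 0.15, HIST1H3F to 0.065 and MCM6 to 0.12. The minimum of counts was not applied to these single-gene values, and they carry no interval. HIST1H3F, for instance, stood at only 3.94 CPM in bin 1 and 4.13 in bin 10. With 50% of cells per set there were 351 higher and 115 lower genes, a G2 and M median of 1.05, a depth ratio of 1.08 and a TE value of -0.11, and 56 of the 170 genes were no longer past 1.5-fold, against 0 to 15 in the other alternatives. Sets matched on depth gave a depth ratio of 1.01. Equal weights of the score genes, the score without its most abundant gene, added counts of joined names and features without a number gave 773 to 866 higher and 165 to 255 lower genes.

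Scaling moved the split of calls. Of called genes 77.5% were higher, against 59.8% (566 higher, 380 lower) with mitochondrial and ribosomal protein genes left out of the denominator, where the TE value was -0.35, and 55.2% (521 and 423) after the median of all genes, 0.13, was subtracted, a choice made after seeing the data. Counts per cell gave 2031 and 98 (95.4% higher), an S phase median of 0.36 and a TE value of -0.00284, with the median of all genes at 0.37. The TE value was -0.21 without the 5% of cells with most counts and -0.18 as a mean over cells. A minimum of 1000 counts gave 295 and 31 genes, no minimum 4668 and 5989, and a fold of 2 gave 283 and 55. Leaving out cells above 25% mitochondrial counts, also added after seeing the data, gave 829 and 248.

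No paired analysis was possible because each condition is 1 library and the comparison lies within it. Depth limits genes under 200 counts, and the intervals hold no variation between cultures.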
